A study of Daucus carota subsp. sativus with 2 samples.

Results

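The enzymes described here are those of the Calvin cycle and of photorespiration in carrot root, measured as transcripts in 1 library of a red variety and 1 library of an orange hybrid. They were found by words in the protein names of the deposited count table, such as ribulose, phosphoribulokinase, transketolase, carbonic anhydrase, glycine cleavage and serine hydroxymethyltransferase, with names holding 3-phosphoglycerate left out. The words matched 31 of 19838 transcripts. The members comprise 8 transcripts named for RuBisCO, 6 for enzymes that regenerate its substrate and 2 for carbonic anhydrase. A further 5 are for subunits of the glycine decarboxylase complex, 5 for serine hydroxymethyltransferase and 5 for other enzymes. The last 5 are 2 phosphoglycerate kinases, which work in the Calvin cycle and in glycolysis, and 3 transcripts of methionine salvage (methylthioribulose-1-phosphate dehydratase) that share only the word ribulose. The words matched no transcript of sedoheptulose bisphosphatase, fructose bisphosphatase, glycolate oxidase, glyoxylate aminotransferases, hydroxypyruvate reductase or glycerate kinase. Of all transcripts, 81.3% had a protein name that was uncharacterized or missing. These steps may sit among those transcripts or under spellings that the words do not cover.

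In the Calvin cycle, RuBisCO joins carbon dioxide to ribulose bisphosphate in the chloroplast, the product is reduced to sugar phosphates, and transketolase, an epimerase and phosphoribulokinase rebuild the acceptor. RuBisCO also takes oxygen in place of carbon dioxide, and photorespiration recovers the carbon: glycine is split in mitochondria by the glycine decarboxylase complex (P, H, T and L proteins) and serine hydroxymethyltransferase makes serine from the products. These pathways are known for their high activity in green leaves. Several of the enzymes have forms that also work in non-green tissue, since transketolase serves the pentose phosphate pathway and the glycine and serine enzymes supply one-carbon units.

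The red library was labelled Delhi and the orange one Hybrid, and both came from roots of Daucus carota subsp. sativus with no treatment. The series title calls the red carrot wild and the orange one modified. RNA was selected by its poly(A) tail, and the number of plants behind each library, their age and the genetic change in the orange carrot are not given in the labels. With 1 library per group, no difference has a replicate check, variety and library cannot be told apart, and each interval below is a 95% exact Clopper-Pearson interval that covers counting error only. In a bulk sample, fewer cells of a type and less RNA per cell cannot be told apart.

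Counts summed to 11310179 in the red library and 7432754 in the orange one. Counts were divided by a size factor per library (1.07 for red, 0.937 for orange), and ratios are of these scaled counts. Transcripts with a mean scaled count of at least 10 are termed measured, and one was called higher in a library at a ratio of at least 2 with an interval that excluded equality. Chlorophyll-binding, photosystem and related proteins of the photosynthetic apparatus took 4.77% of the counts in the red root library and 0.347% in the orange one. Root and storage organ names went in both directions. Xyloglucan endotransglucosylases, enzymes of wall growth, took 0.0697% in red and 1.60% in orange, and expansins, which loosen walls, took 0.00570% and 0.0718%. Cellulose synthases took 0.213% and 0.331%, and major allergens 0.00195% and 0.0460%. Phloem protein 2 took more in red, at 0.312% and 0.0481%, as did sucrose synthase, at 0.0362% and 0.0130%. The part of these differences in the results below was not tested. The labels do not say whether green tissue, such as the crown or the shoulder, was in either root sample, so that variety and tissue sampled cannot be told apart.

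Most of the Calvin cycle and photorespiration transcripts were far higher in the red library. The 31 transcripts together took 3.39% of the counts in red (383676 reads, interval 3.38 to 3.40) against 0.258% in orange (19185 reads, 0.254 to 0.262), and their scaled counts summed to a 17.6-fold higher level in red (17.3 to 17.8). Of the 31, 27 were measured, of which 18 were higher in red, 2 were higher in orange and 7 differed by less than 2-fold. Among the 18, 5 are RuBisCO transcripts under 1 gene name. With counts summed per gene name, 14 of 23 were higher in red and 2 in orange. Among all 14868 measured transcripts, 30.6% were called higher in red and 24.4% higher in orange. With libraries scaled to total counts, the calls over all transcripts turned from 4545 in red and 3631 in orange to 3679 and 5035, while those of the members stayed at 18 and 2. That scaling moves log2 ratios toward orange by 0.42, too little to change the call of any measured member given its fold. Without the filter on low counts the counts were 18 and 2 of 31. Of the measured members, 4 had under 10 counts in orange and so passed through the red library alone.

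The differences were large as well as frequent. At 16-fold, 16 members were higher in red, against a background of 7.22% of all measured transcripts, and at 100-fold 9 members were, against 1.47%. Many members are abundant. Among the 2120 transcripts with a mean scaled count of at least 1000, 35.9% were called higher in red at 2-fold, 11.7% at 16-fold and 3.87% at 100-fold. The median log2 fold (orange over red, pseudocount 0.5) of the 27 measured members was -4.82, against -0.06 over all measured transcripts. It was -4.59 when transcripts with 0 counts in orange were set at the floor of 3 counts.

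**Figure D1:**
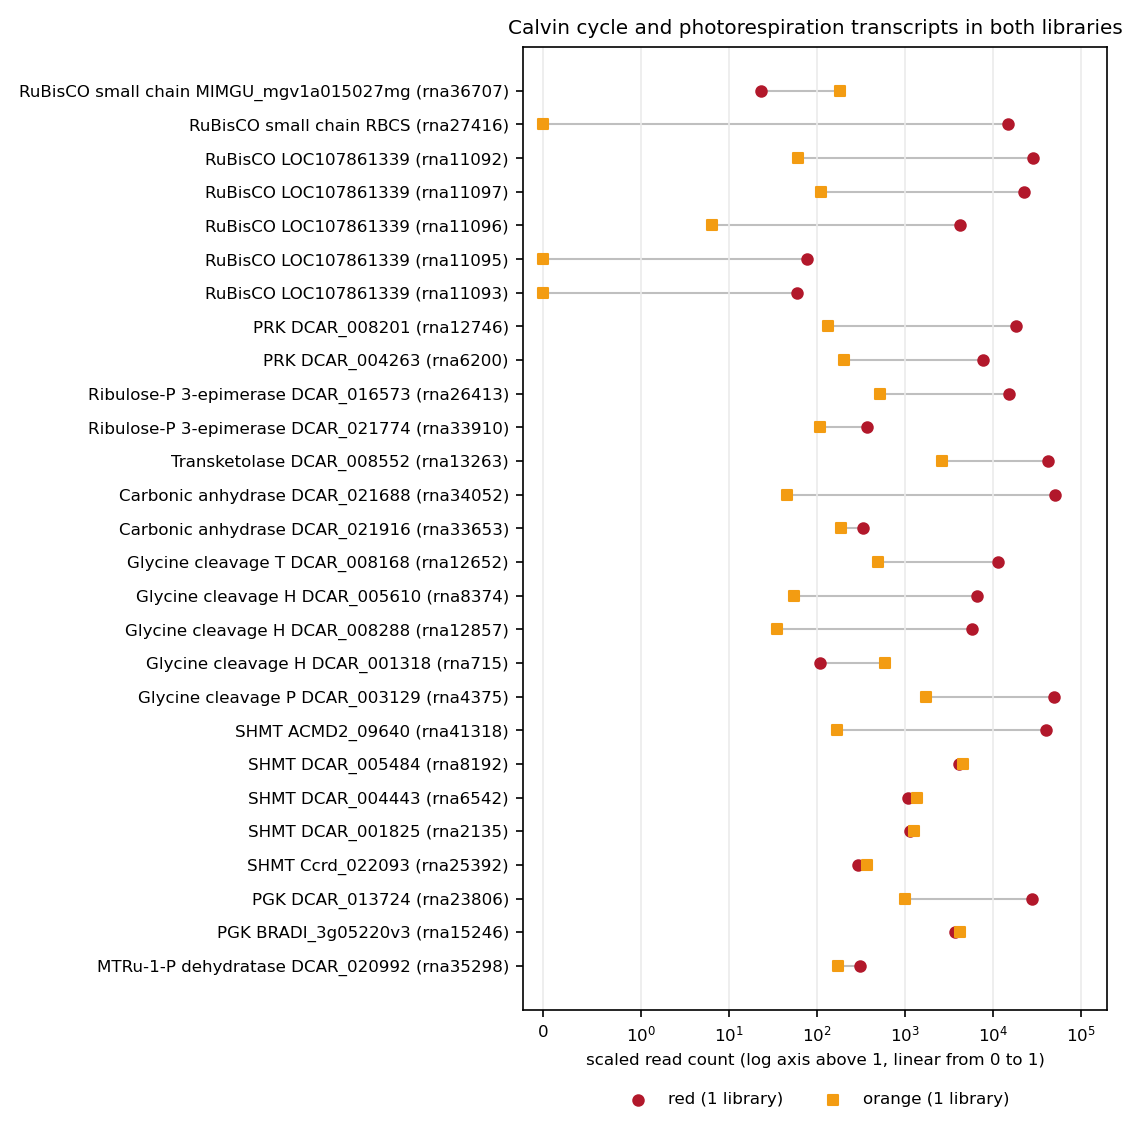
Scaled read counts (x axis, logarithmic above 1) of the 27 measured transcripts, with red circles for the red library, orange squares for the orange library and a grey line joining the pair. In 18 rows the red library lies at least 2-fold to the right, in 2 rows the orange library does, and the remaining 7 rows lie close together; SHMT is serine hydroxymethyltransferase, PRK phosphoribulokinase, PGK phosphoglycerate kinase, and MTRu-1-P dehydratase the methionine salvage enzyme.

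**Figure D2:**
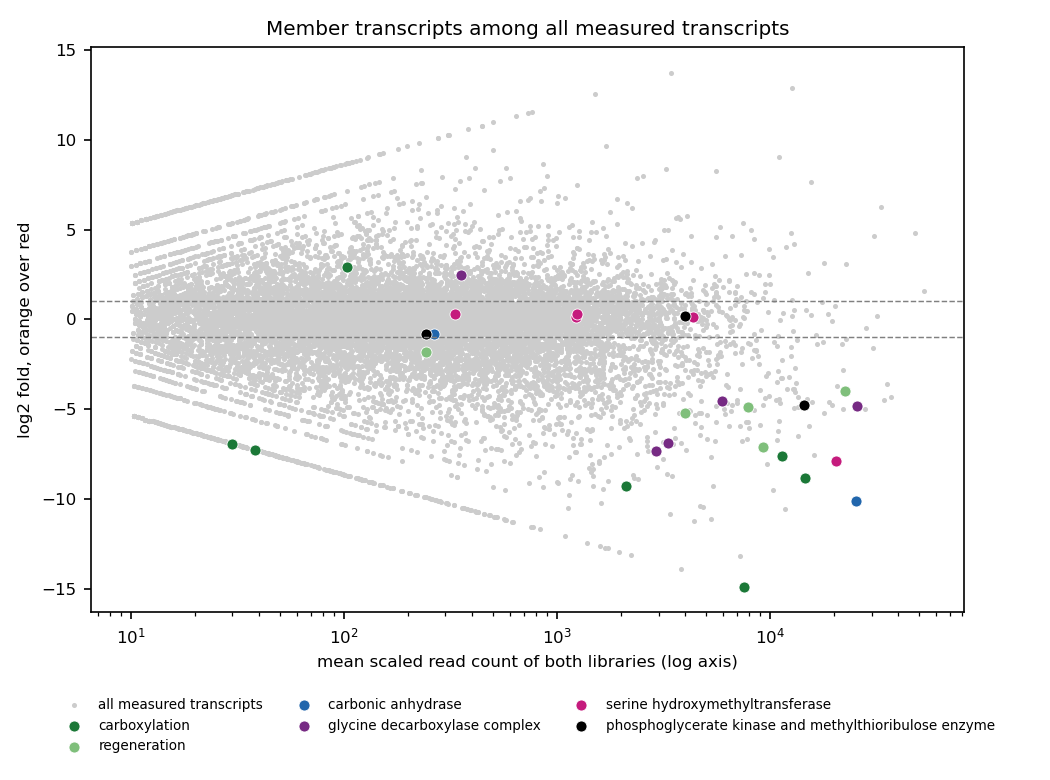
Log2 fold of orange over red (y axis) against the mean scaled read count of both libraries (x axis, logarithmic) for all 14868 measured transcripts in grey and the 27 measured members in colour by role. Dashed lines mark 2-fold; most coloured points lie far below the lower line, at the right of the plot.

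The 8 transcripts named for RuBisCO, the carboxylating enzyme, summed to 76004 reads in red against 342 in orange, 195-fold higher in red (176 to 218). Its small chain transcript RBCS had 16192 reads in red against 0 in orange. Set against a floor of 3 counts in the orange library, it was at least 4740-fold higher in red, and the lower limit of the exact interval, which takes a wider margin for a count of 0, was 3855. The other transcript named as a small chain, MIMGU_mgv1a015027mg, had 25 reads in red against 172 in orange. It was 7.83-fold higher in orange (5.13 to 12.4), the opposite direction. Summed over both, which allows for reads exchanged between similar copies, the small chain was 82.8-fold higher in red (71.3 to 96.8). No transcript named as the large chain was analysed here.

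A further 6 transcripts carry 1 gene name, LOC107861339, and the name ribulose-bisphosphate carboxylase with no subunit stated. The shared name does not tell whether they come from 1 carrot gene or from separate copies. Together they had 59787 reads in red against 170 in orange, 309-fold higher in red (266 to 361). Transcript rna11092 had 31037 reads in red against 58 in orange, a ratio of 470 (363 to 619). Transcript rna11097 had 24093 and 106, a ratio of 200 (165 to 244), and rna11096 had 4510 and 6, a ratio of 660 (303 to 1800). The remaining 3 had 82, 64 and 1 reads in red against 0 in orange; rna11095 was at least 24.0-fold and rna11093 at least 18.7-fold higher in red against the same floor (lower limits of the exact intervals 19.1 and 14.8), while rna11094 was below the filter.

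The mix of these transcripts differed between the libraries. Transcript rna11092 made up 51.9% of the reads under this gene name in red (51.5 to 52.3) against 34.1% in orange (27.0 to 41.8). Transcript rna11097 made up 40.3% in red (39.9 to 40.7) against 62.4% in orange (54.6 to 69.7). The leading transcript was therefore a different one in each library, with 170 counts behind the orange shares. Reads shared by similar transcripts can be assigned to either, and the sources used here do not say how the counting treated them.

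All 5 measured transcripts of the regeneration steps were higher in red. Phosphoribulokinase, the Calvin cycle enzyme that makes the acceptor of carbon dioxide, had 2 transcripts. DCAR_008201 had 19579 reads in red against 126 in orange, 136-fold higher in red (115 to 164). DCAR_004263 had 8309 and 193, 37.8-fold higher in red (32.8 to 43.8). The intervals of these 2 ratios do not overlap, and DCAR_008201 took 70.2% of the enzyme's counts in red and 39.5% in orange (34.1 to 45.1).

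Ribulose-phosphate 3-epimerase, shared by the Calvin cycle and the pentose phosphate pathway, had 3 transcripts under 2 gene names. DCAR_016573 had 16345 reads in red against 493 in orange, 29.1-fold higher in red (26.6 to 31.9). The more abundant transcript of DCAR_021774, rna33910, had 402 and 101, 3.50-fold higher in red (2.80 to 4.39), the smallest ratio among the 18 members called higher in red. The other transcript of DCAR_021774 had 6 and 3 counts, below the filter. Transketolase, which moves carbon units between sugar phosphates in both pathways, had 1 transcript, DCAR_008552. It had 45386 reads in red against 2520 in orange, 15.8-fold higher in red (15.2 to 16.5), and held 13.1% of all the members' counts in orange.

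Carbonic anhydrase interconverts carbon dioxide and bicarbonate. DCAR_021688 had 54242 reads in red against 43 in orange, a ratio of 1108 (822 to 1531), the largest ratio among members with counts in both libraries. It alone held 14.1% of the members' counts in red and 0.224% in orange. The other carbonic anhydrase, DCAR_021916, had 362 reads in red against 179 in orange. Its ratio of 1.78 (1.48 to 2.14) was under 2-fold, and it took 80.6% of the enzyme's counts in orange (74.8 to 85.6) against 0.663% in red.

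In the glycine decarboxylase complex, 4 of 5 transcripts were called toward red and 1 toward orange. The P protein, which decarboxylates glycine, had 52935 reads in red against 1648 in orange for its transcript DCAR_003129, 28.2-fold higher in red (26.9 to 29.6). The T protein, an aminomethyltransferase that passes a carbon unit to tetrahydrofolate, had 12160 and 464 counts for DCAR_008168, 23.0-fold higher in red (21.0 to 25.3). These ratios lie close together, with intervals that do not overlap.

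The H protein, the lipoylated carrier between the other subunits, had 3 transcripts that went in both directions. DCAR_005610 had 7072 reads in red against 52 in orange, 119-fold higher in red (91.0 to 160). DCAR_008288 had 6200 and 33, 165-fold higher in red (117 to 240), and the intervals of these 2 overlap. DCAR_001318 had 116 reads in red against 563 in orange, 5.53-fold higher in orange (4.52 to 6.81). It made up 0.866% of the H protein counts in red and 86.9% in orange (84.0 to 89.4). Summed over its 3 transcripts, the H protein was 18.1-fold higher in red (16.8 to 19.7), below the ratios of P and T. The L protein shares no word with the rule and was not analysed here.

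Serine hydroxymethyltransferase, which links glycine and serine and supplies one-carbon units, split into 1 transcript that was far higher in red and 4 that differed little. ACMD2_09640 had 43386 reads in red against 159 in orange, 240-fold higher in red (205 to 282). DCAR_005484 had 4407 and 4299 reads, 1.11-fold higher in orange. DCAR_004443 had 1180 and 1287, 1.24-fold higher in orange. DCAR_001825 had 1242 and 1203, and Ccrd_022093, a fragment by its name, had 316 and 347, with 1.10-fold and 1.25-fold higher scaled counts in orange. The log2 folds of these 4 ran from 0.14 to 0.32, and with libraries scaled on cytosolic ribosomal protein transcripts those of DCAR_005484 and DCAR_001825 turned to -0.11 and -0.12. ACMD2_09640 took 85.9% of the enzyme's reads in red (85.6 to 86.2) against 2.18% in orange (1.86 to 2.54), where DCAR_005484 led with 58.9%.

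Phosphoglycerate kinase showed the same kind of split. DCAR_013724 had 29698 reads in red against 938 in orange, 27.8-fold higher in red (26.1 to 29.7). BRADI_3g05220v3 had 3988 and 4018 counts, 1.15-fold higher in orange, and its log2 fold of 0.20 turned to -0.06 with that scaling. DCAR_013724 made up 88.2% of the counts of the enzyme in red and 18.9% in orange (17.8 to 20.0). Of the methionine salvage transcripts, DCAR_020992 had 330 and 166 counts and a ratio of 1.75 toward red (1.44 to 2.12). The 2 transcripts of DCAR_013024 had 9 and 8 counts and 2 and 0 counts, below the filter.

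**Figure D3:**
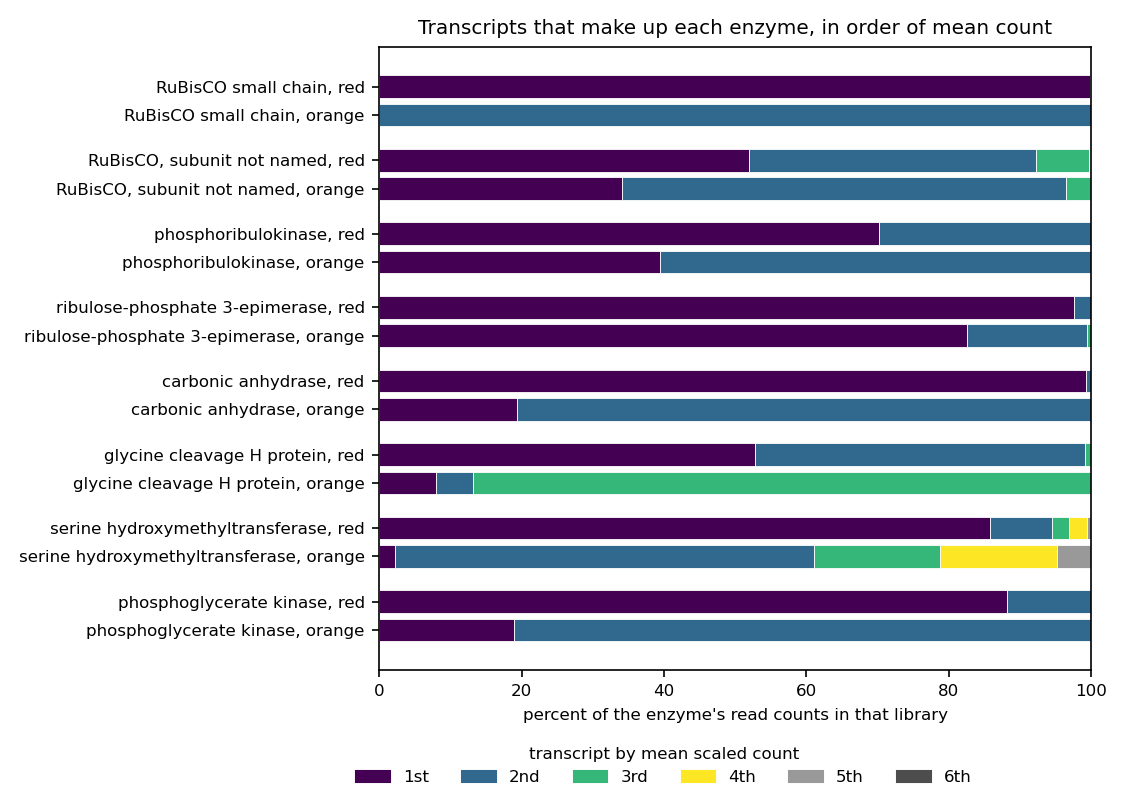
Percent of each enzyme's read counts (x axis) held by its transcripts in the red and orange libraries, for the 8 enzymes with at least 2 measured transcripts; colours give the order of the transcripts by mean scaled count. In all but ribulose-phosphate 3-epimerase, the transcript with the largest share in red is not the one with the largest share in orange.

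Across the 8 enzymes with at least 2 measured transcripts, the transcript with the most counts differed between the libraries in 7 (87.5%), the exception being ribulose-phosphate 3-epimerase. Over all 425 informative protein names shared by at least 2 measured transcripts, it differed in 164 (38.6%), and in 118 of the 349 names with 2 to 5 measured transcripts (33.8%). The shares come from unlike groupings. Members were pooled by enzyme across differing names, while the background was grouped by identical names. The 2 RuBisCO small chain transcripts, for example, carry different names. This grouping by name was made with the values known, and the shares were not compared by a test. In carbonic anhydrase, serine hydroxymethyltransferase and phosphoglycerate kinase, the transcript leading in orange differed by less than 2-fold between the libraries. In the H protein and the RuBisCO small chain, it was the transcript called higher in orange. The members' counts in orange rested in part on other transcripts than in red. DCAR_005484 (serine hydroxymethyltransferase) held 22.4% and BRADI_3g05220v3 (phosphoglycerate kinase) 20.9% of the members' counts in orange, against 1.15% and 1.04% in red. Transketolase DCAR_008552, at 11.8% in red and 13.1% in orange, and the P protein DCAR_003129, at 13.8% and 8.59%, held large shares in both.

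By summed scaled counts, the enzymes spanned ratios from 309 to 1.72 toward red. After RuBisCO of unnamed subunit came carbonic anhydrase at 216 (189 to 248), then the RuBisCO small chain at 82.8 and phosphoribulokinase at 76.8 (68.8 to 86.0), whose intervals overlap. The P protein at 28.2, the epimerase at 24.6 (22.7 to 26.8), the T protein at 23.0, the H protein at 18.1 and transketolase at 15.8 followed, and the intervals of the epimerase and the T protein overlap. Serine hydroxymethyltransferase at 6.08 (5.94 to 6.24) and phosphoglycerate kinase at 5.97 (5.79 to 6.15) did not differ beyond their intervals, and methionine salvage was at 1.72 (1.43 to 2.08). The 14 transcripts of RuBisCO and the regeneration steps summed to 38.6-fold higher in red (37.4 to 39.9). The 10 of the glycine decarboxylase complex and serine hydroxymethyltransferase summed to 11.3-fold (11.0 to 11.5). These sums are over read counts and not per length.

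**Figure D4:**
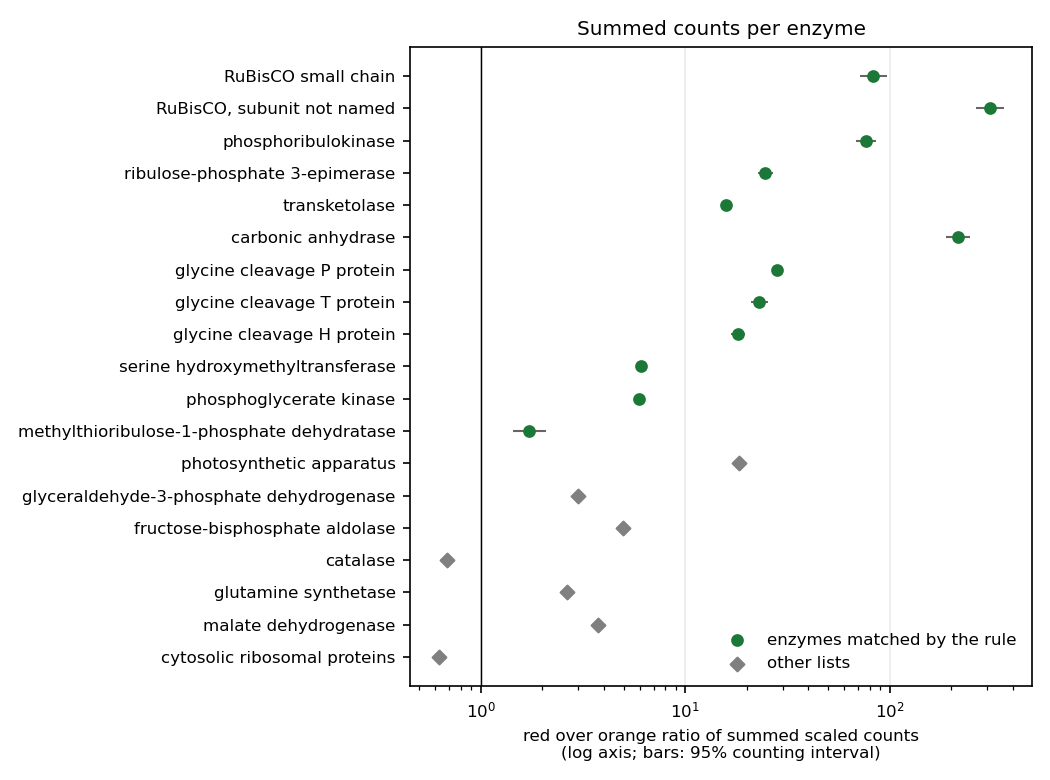
Ratio of summed scaled counts, red over orange (x axis, logarithmic), for each enzyme of the list in green and for other gene lists in grey, with 95% counting intervals as bars. Ratios of the listed enzymes run from 309 for RuBisCO of unnamed subunit to 1.72 for methionine salvage, while catalase and cytosolic ribosomal proteins lie below 1.

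Neighbouring enzymes that the naming rule leaves out were mixed. Of 31 such transcripts (glyceraldehyde-3-phosphate dehydrogenase, aldolase, ribose-5-phosphate isomerase, catalase, glutamine synthetase, malate dehydrogenase, and alanine and phosphoserine aminotransferases), 26 were measured, 12 of them higher in red and 6 in orange. Their median log2 fold was -0.23. At 16-fold, 11 of the 26 were higher in red and none (0) in orange, and at 100-fold 5 were higher in red and none (0) in orange, against the background of 7.22% and 1.47% toward red. Within an enzyme the transcripts again lay apart. Glyceraldehyde-3-phosphate dehydrogenase, which acts in the Calvin cycle and in glycolysis, had DCAR_022989 with 25109 reads in red against 14 in orange (ratio 1575, 939 to 2882), while rna34190, with no gene name, had 10745 and 12172. Aldolase, of the same pathways, had DCAR_003683 with 34080 and 157 counts (ratio 191, 163 to 224) and DCAR_022915 with 13612 and 441 (27.1). Of the 8 measured aldolase transcripts, 4 were higher in red, 2 were higher in orange and 2 differed by less than 2-fold.

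Catalase, which breaks down the hydrogen peroxide that photorespiration makes in peroxisomes, was higher in orange as a sum (1.46-fold). Ccrd_016515 had 29894 reads in red against 1085 in orange, 24.2-fold higher in red (22.8 to 25.7), and DCAR_013924 had 28604 and 74445, 2.96-fold higher in orange. Malate dehydrogenase DCAR_021923 was 31.1-fold higher in red (28.9 to 33.4) and DCAR_019590 2.23-fold higher in orange. Cytosolic glutamine synthetase GLN1, which assimilates ammonia, had 25661 and 8593 counts, 2.62-fold higher in red (2.56 to 2.69).

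The photosynthetic apparatus differed between the libraries to a similar degree. Of its 43 measured transcripts, 35 were higher in red against 3 in orange. Their median log2 fold was -4.35, with summed scaled counts 18.4-fold higher in red (18.1 to 18.6). The members' sum, at 17.6-fold (17.3 to 17.8), lay slightly below it, with intervals that do not overlap. Cytosolic ribosomal proteins had 2 of 51 measured transcripts called toward red and 13 toward orange, with a median log2 fold of 0.26. Whether the enzymes differ from the photosynthetic apparatus between varieties cannot be tested with 1 library per group.

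In the authors' deposited table, 5 of the 31 members (16.1%) had a p-value of at most 0.05, against 1198 of its 19838 transcripts (6.04%). The authors' separate list for p-values held 875 transcripts, of which 3 were members. RBCS and rna11095, with 0 counts in orange, had p-values below 0.05 but were not in that list. None (0) of the members was among the 6 transcripts in the authors' separate list for adjusted p-values. Adjusted values over all 19838 transcripts were not counted here. The lowest p-value of a member in the authors' deposited table was 0.000884524 for rna11096 of LOC107861339, with an adjusted value of 0.118. Carbonic anhydrase DCAR_021688, with a ratio of 1108, had a p-value of 0.557 in the authors' deposited table, and serine hydroxymethyltransferase ACMD2_09640 had 0.448. The dispersion setting behind those values is not stated by the sources at hand. With 1 library per group, they cannot measure the spread between plants of a variety, and the shares are given as a description.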

How the data were processed

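Root RNA with poly(A) tails was sequenced in 1 library per variety, and titles gave the groups. FastQC, cutadapt, HISAT, HTSeq and DESeq are named in the submitters' processing notes, but not their versions or roles. Genome build, annotation and strand setting are not stated in those notes or in the labels and files used here. Whole-number read counts per transcript were deposited, with protein and gene names. Their deposited normalised counts, a signal, equal the read count times 1 constant per library (0.937 for red, 1.07 for orange), which is 1 over the size factors used here. The authors' deposited tables also hold a fold (the ratio of orange over red), its log2 and p-values.

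From the counts, median-of-ratios size factors, ratios, log2 folds with a pseudocount of 0.5 and Clopper-Pearson intervals were computed in Python 3.11.15 with scipy 1.17.1; TMM factors came from edgeR 4.0.16. A count of 0 was set to a floor of 3 counts in that library for calls and bounds. No p-value for a difference was made, since each group has 1 library. Counts were simulated for the orange against red comparison with counting error only (14890 transcripts, most of them unchanged). Of 66 transcripts changed by 4-fold, 98.5% were called. The share was 52.1% of 71 changed by exactly the threshold of 2-fold, and 0.395% of unchanged ones. Of the intervals, 95.8% held the true fold. The simulation held no spread between plants or libraries, so these rates are not error rates of the calls in the data.

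Members and lists were chosen with earlier results of these data known. Every measured member may be named, and of each neighbouring enzyme the 2 transcripts of highest mean count. A role's words were read with a hyphen or a space alike. None (0) of the 24 gene names of members was found in the reference gene table, so no coordinates or sequences are given. Gene names of other species are those of the deposited annotation. Genes of similar sequence can exchange reads. The alternatives tried were other scalings, filters, pseudocounts, thresholds and groupings of the members.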

Additional observations from a re-analysis of the deposited data

How the results depend on the processing

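Under the 10 alternatives tried for each, between 14 and 20 members were called higher in red and 2 in orange: 20 in red with ribosomal protein scaling, which added carbonic anhydrase DCAR_021916 and methionine salvage DCAR_020992, 16 of 25 with a minimum mean of 50, 14 of 23 with counts summed per gene name, and 17 at 4-fold. The median log2 fold of the members (-4.82) was -4.40 with total-count scaling, -4.61 with upper-quartile scaling and -5.08 with ribosomal protein scaling. It was -4.52 without the filter on low counts and with counts summed per gene name, and -4.51 with a pseudocount of 5. Without phosphoglycerate kinase and the methionine salvage transcripts it was -5.05. The log2 ratio of summed counts (-4.13) was -3.72, -3.93 and -4.39 under these 3 scalings in the same order. It was -4.45 without phosphoglycerate kinase and the methionine salvage transcripts. These scalings move the log2 ratio by 0.42, 0.21 and -0.26, and TMM by -0.0016, and with the pseudocount the moves are smaller for transcripts with few or 0 counts. None (0) of the 20 members called at 2-fold changed direction under any of the 6 scalings and pseudocounts. No such change was possible. The smallest difference among them was a log2 fold of -1.80 (rna33910), beyond any move by scaling, and a pseudocount keeps the order of 2 counts. The calls of the photosynthetic apparatus (35 in red) were 35 or 36 under the scalings, a check added after seeing the data. No paired analysis was possible because each group has 1 library, and no library can be left out. Depth limits the orange shares within enzymes, with 170 counts for LOC107861339, 172 for the RuBisCO small chain and 222 for carbonic anhydrase.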
